A study of Danio rerio with 8 samples.

Results

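The genes of miR-99, miR-100 and miR-125 were described in small RNA-seq libraries of zebrafish larvae at 7 dpf. They were taken as the rows of the count table whose symbol starts with dre-mir-99, dre-mir-100 or dre-mir-125, which gave 8 genes among the 434 miRNA genes and the 32520 genes of the table. The table spells 2 further copies as mir99-2 and mir100-2, outside this rule. They are given beside the 8 members and were counted in the sums per miRNA, so that those sums hold all 10 genes that the table names. The S+ group was 4 pools of larvae fathered by males kept under chronic stress for 21 days, and the S- group was 4 pools fathered by undisturbed males. The labels give every library as wild type, the methods name the AB strain, and the mothers were undisturbed females in both groups. The fathers were 12 months old. Each pool held 50 whole larvae of a single crossing, so a library averages all organs, and fewer cells of a type cannot be told apart from less RNA per cell.

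A miRNA is a short RNA that is cut from a hairpin and guides a protein complex to mRNAs, mostly through a few bases near its 5′ end, the seed. miR-99 and miR-100 share a seed and belong with miR-10 to a very old animal family. In mammals they repress parts of the mTOR growth pathway, and in zebrafish their decline accompanies regeneration of the heart. miR-125 is the vertebrate relative of lin-4, which times larval development in the worm. In mammals miR-125 and let-7 both repress the stem cell factor LIN28. The genes of these families often lie next to a let-7 gene, and several gene copies can give the same mature miRNA.

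None of the 8 members was called between S+ and S- larvae, nor were mir99-2 and mir100-2. The miR-99 and miR-100 genes had log2 fold changes of 0.13 to 0.65, the dre-mir-125c gene had -0.59, and the miR-125b genes lay near 0. Calls needed less than 0.05 for the Benjamini-Hochberg adjusted p of a limma fit over 651 genes, and a log2 fold change beyond 0.58 in either direction. Of all the genes tested, 0.307% were called. At an unadjusted p below 0.05 there were 2 of the 8 members, dre-mir-100-1 and dre-mir-125a-2, against a background of 12.4% of the genes tested. In a limma fit of miRNA genes only, 56 of 271 genes were below 0.05, among them dre-mir-100-1, dre-mir-125a-2 and dre-mir-125c. In dre-mir-125a-2 alone among the 8, the S+ and S- libraries did not overlap, against 7.68% of the genes tested. The median log2 fold change was 0.03 over the 8 members, with 4 positive and 4 negative values, and -0.02 over all the genes tested. The 95% intervals of the 8 members reached from -1.19 to 1.27 at their widest. Those of dre-mir-99-1, dre-mir-100-1, dre-mir-125a-2 and dre-mir-125c reached beyond the fold change threshold. Moderate changes of these genes were thus not excluded with this number of pools.

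The levels of the 10 genes spanned more than an order of magnitude. Levels are given as CPM, counts scaled to the size of the library with TMM factors. Counts were not divided by gene length, so the order below is one of counts. The methods put the libraries and their data processing under small RNA-seq, but the kit they name is a stranded RNA kit with removal of ribosomal RNA. MiRNA genes held 96.2% (S- 2) to 97.9% (S+ 2) of all counts of a library. Counts are given per gene, so those of mature miRNAs and of longer precursors cannot be told apart. Dre-mir-125b-3 was the highest, with 2271 to 3030 CPM over the 8 libraries, and ranked 64 among the genes tested. Dre-mir-125a-1 followed with 693 to 875 CPM, below dre-mir-125b-3 and above mir99-2 in all 8 libraries. The next 3 genes were close to each other. Mir99-2 averaged 353 CPM and lay above dre-mir-125b-1, at 320.1 CPM, in 5 of 8 libraries, while dre-mir-125b-1 lay above dre-mir-99-1, at 284 CPM, in 6 of 8. Dre-mir-99-1 lay above mir100-2 in all 8 libraries. At the lower end, mir100-2 averaged 163 CPM, dre-mir-125b-2 144.2 CPM, dre-mir-100-1 106 CPM, dre-mir-125a-2 75.9 CPM and dre-mir-125c 52.3 CPM. Each of these lay above the next in 6 or 7 of the 8 libraries, so their ranges overlapped. Counts ran from 120 for dre-mir-125c to 12155 for dre-mir-125b-3, and all 8 members passed the filter on low counts.

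**Figure D1:**
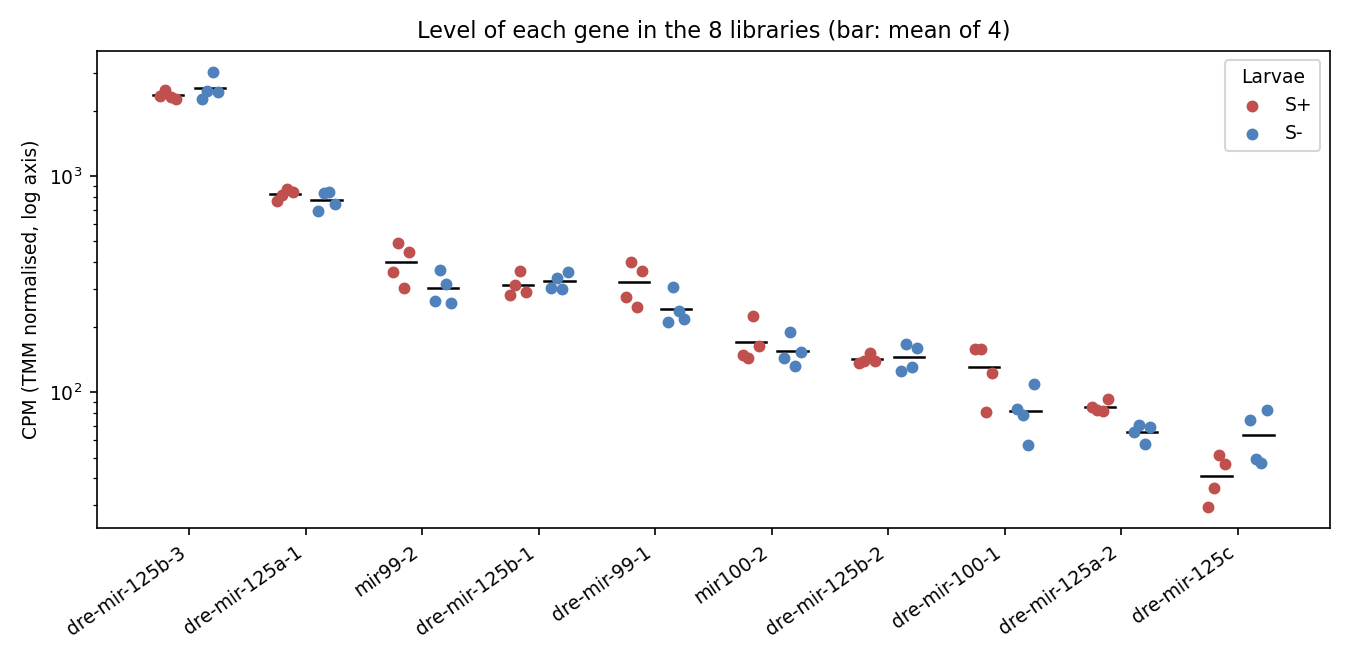
CPM (log axis) of the 8 members and of mir99-2 and mir100-2, in order of their mean, with S+ libraries in red, S- libraries in blue and bars for the mean of 4. Dre-mir-125b-3 lies at 2271 to 3030 CPM and dre-mir-125c at 29.6 to 82.9 CPM; the points of S+ and S- overlap in every gene shown except dre-mir-125a-2.

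The miR-99 genes, of the family that represses mTOR signalling in mammals, had higher means in S+ larvae, with overlapping pools. Dre-mir-99-1 (ENSDARG00000082197) had 276, 404, 248 and 366 CPM in the S+ libraries 1 to 4, against 213, 308, 238 and 220.01 CPM in the S- libraries 1 to 4. Libraries 2 and 4 were the highest of S+ and library 2 the highest of S-, and the groups overlapped. Its log2 fold change was 0.38 (standard error 0.197, limma adjusted p = 0.450). The copy mir99-2 (ENSDARG00000081315) had 362, 494, 303 and 449 CPM in S+ and 264, 371, 318 and 259 CPM in S-. The same libraries were high as for dre-mir-99-1, and the groups overlapped again. Its log2 fold change was 0.39 (standard error 0.192, limma adjusted p = 0.428). The copies kept nearly the same proportion in every library, with 1.18 to 1.34 counts of mir99-2 for each count of dre-mir-99-1. Reads that fit both copies are divided by estimate, and the part of that division in this likeness was not tested. Summed over both copies, miR-99 had 725 ± 159 CPM (SD, n = 4) in S+ and 548 ± 95.2 CPM (SD, n = 4) in S-. The log2 fold change of this sum was 0.38, with a 95% interval from -0.04 to 0.80 (limma adjusted p = 0.439). Without S+ replicate 2 it was 0.24, and that of dre-mir-99-1 was 0.25.

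The miR-100 genes behaved differently from each other. Dre-mir-100-1 (ENSDARG00000081501) had 159.8, 159.4, 81.2 and 123 CPM in the S+ libraries and 84.0, 78.5, 57.0 and 109 CPM in the S- libraries. The S+ libraries 1 and 2 and also 4 lay above all S- libraries, while S+ 3 lay below S- 1 and S- 4. The log2 fold change was 0.65, a 1.57-fold higher level in S+ (standard error 0.275, limma unadjusted p = 0.0392, adjusted p = 0.352). The copy mir100-2 (ENSDARG00000081453) had 149.9, 145, 225 and 164 CPM in S+ and 145, 191, 132 and 154 CPM in S-. Here S+ 3 was the highest library of all, and the log2 fold change was 0.13 (standard error 0.190, limma adjusted p = 0.774). Without S+ 3 that value was -0.03.

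The share of the miR-100 counts that each copy took varied between libraries. Dre-mir-100-1 took 51.6%, 52.4%, 26.5% and 42.8% of the miR-100 counts in the S+ libraries, against 36.7%, 29.1%, 30.1% and 41.5% in the S- libraries. The 95% exact binomial interval, which covers counting error only, was 24.3% to 28.7% in S+ 3, the lowest share, and 49.6% to 55.1% in S+ 2, the highest. The software used for counting divides reads that fit several genes by estimate, and the part of that division in these shares, and of reads shared with miR-99, was not tested. Summed miR-100 had 309.7, 304, 306 and 287 CPM in S+, against 229, 269.5, 189 and 263 CPM in S-. All 4 S+ libraries lay above the S- libraries. The mean was 302 ± 10.2 CPM (SD, n = 4) in S+ and 237 ± 36.8 CPM (SD, n = 4) in S-. The log2 fold change of summed miR-100 was 0.35, with a 95% interval from 0.02 to 0.69 (limma unadjusted p = 0.0415, adjusted p = 0.390). Without S- replicate 3 it was 0.23.

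**Figure D2:**
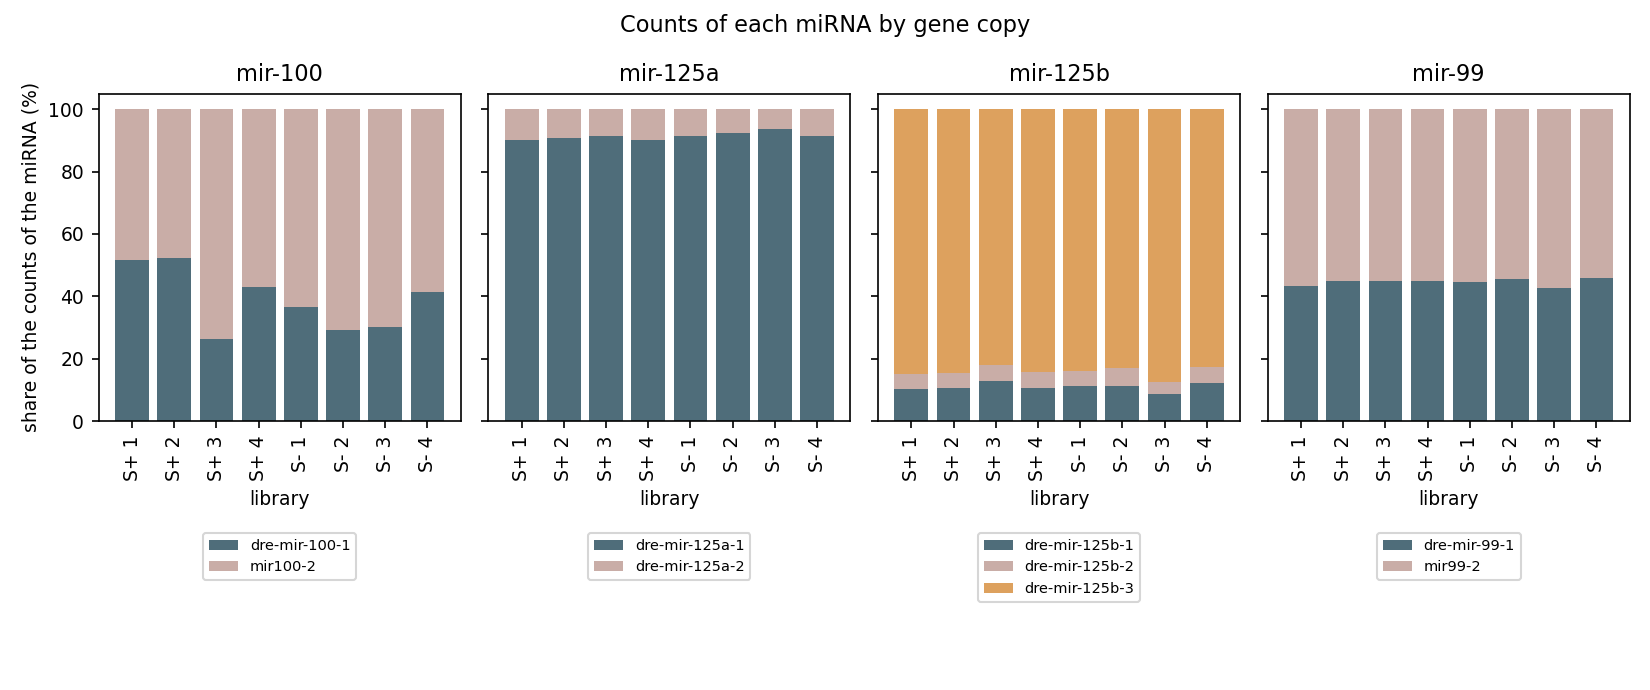
Share of the counts of miR-100, miR-125a, miR-125b and miR-99 (%, each bar adds up to all counts of that miRNA) that each gene copy took in the libraries S+ 1 to 4 and S- 1 to 4. The share of dre-mir-100-1 runs from 26.5% to 52.4%, while that of dre-mir-99-1 stays between 42.8% and 46.0%.

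For miR-125a, a miRNA enriched in the nervous system and in blood stem cells of mammals, the abundant copy had close means in both groups and the scarce copy lay higher in S+, without passing the test. Dre-mir-125a-1 (ENSDARG00000083123) had 772, 825, 875 and 843 CPM in S+, against 693, 840, 852 and 744 CPM in S-. The groups overlapped and the log2 fold change was 0.09 (standard error 0.120, limma adjusted p = 0.766). Dre-mir-125a-2 (ENSDARG00000081044) had 85.4, 82.6, 82.3 and 93.5 CPM in S+, against 65.4, 71.0, 57.7 and 69.5 CPM in S-. Every S+ library lay above every S- library. Its log2 fold change was 0.38, higher in S+ (standard error 0.155, limma unadjusted p = 0.0335), and the adjusted p of 0.346 from the same fit did not pass. The unadjusted limma p was below 0.05 in 3 of the 8 fits with a library left out. This copy held 9.41% ± 0.676 of the miR-125a counts in S+ and 7.82% ± 1.05 in S- (SD, n = 4 each). Reads that fit both copies are divided by estimate, and the part of that division in this contrast was not tested. Summed miR-125a was 915 ± 43.1 CPM in S+ and 848 ± 75.1 CPM in S- (SD, n = 4 each). The log2 fold change of summed miR-125a was 0.10 (95% interval from -0.16 to 0.37, limma adjusted p = 0.764).

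The miR-125b genes, whose miRNA is abundant in the vertebrate nervous system, made up most of the counts here. None of them was called, and the S+ and S- libraries overlapped in each. Summed miR-125b held 58.8% ± 1.88 of the counts of the 10 genes in S+ and 64.1% ± 2.48 in S- (SD, n = 4 each). The groups did not overlap in this share, but S+ 3 and S- 2 lay close together. The share was not planned and was given no test. It also depends on the counts of the other genes, and the CPM of summed miR-125b overlapped. With reads that fit several copies divided by estimate, dre-mir-125b-3 (ENSDARG00000083557) took 81.9% to 87.5% of the miR-125b counts. It had 2351, 2519, 2338 and 2274 CPM in S+, against 2271, 2481, 3030 and 2467 CPM in S-. S- 3 was the highest library and the others lay close together, so the coefficient of variation was 4.41% in S+ and 12.7% in S-. The log2 fold change was -0.11 (standard error 0.121, limma adjusted p = 0.743). Dre-mir-125b-1 (ENSDARG00000081350) had 281 to 366 CPM in S+ and 300.4 to 363 CPM in S-. Its log2 fold change was -0.06. Dre-mir-125b-2 (ENSDARG00000080032) had 137 to 152 CPM in S+ and 125.3 to 168 CPM in S-. The value of -0.03 for its log2 fold change was positive when S- replicate 2 or S- replicate 4 was left out and when only miRNA genes were fitted. Summed miR-125b had 2826 ± 117 CPM in S+ and 3035 ± 315 CPM in S- (SD, n = 4 each). Its log2 fold change was -0.10, and the 95% interval from -0.37 to 0.16 lay inside the fold change threshold on both sides (limma adjusted p = 0.764).

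Dre-mir-125c (ENSDARG00000080508), the scarcest member and the only gene of its miRNA in the table, had a lower mean in S+ larvae, with overlapping pools. It had 29.6, 36.3, 51.6 and 46.9 CPM in S+, on 120 to 268 counts, against 74.7, 49.1, 47.1 and 82.9 CPM in S-, on 185 to 273 counts. S+ 1 and 2 were the lowest and S- 1 and 4 the highest, while S+ 3 lay above S- 2 and S- 3. The log2 fold change was -0.59, a 1.51-fold lower level in S+ (standard error 0.266, limma unadjusted p = 0.0509, adjusted p = 0.394).

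With the rows of the same miRNA name summed before the fit, 587 features were tested and limma called none, a background of 0%. Rows without a symbol, or with one spelled otherwise such as mir199-3a, stayed single. At an unadjusted p below 0.05 there were 68 of them, or 11.6%, and the groups did not overlap in 7.67%. Of the 5 miRNAs described here, miR-100 alone had an unadjusted p below 0.05 and groups apart. Other tools called 5 features (edgeR) and 24 (DESeq2) in this table, none of them among the 5 miRNAs. Over all settings tried, for the 10 genes and the 5 sums, 0 of 240 fitted values were called, and the lowest adjusted p was 0.103, for dre-mir-125a-2 with miRNA genes only in limma. In that setting 42 of 207 summed features had an unadjusted limma p below 0.05, among them miR-99, miR-100 and miR-125c.

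**Figure D3:**
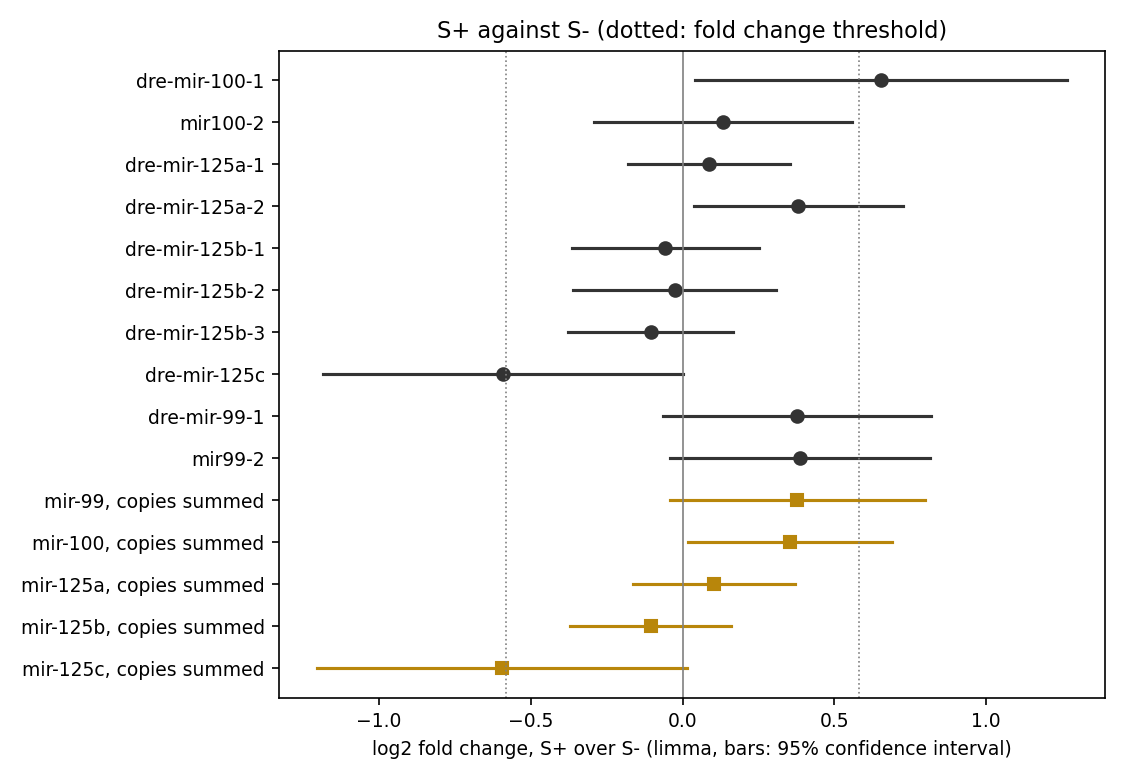
Log2 fold change of S+ over S- for the 10 genes (black) and the 5 miRNAs with copies summed (gold), with 95% confidence intervals from limma; dotted lines mark the threshold of 0.58 in both directions. The intervals of dre-mir-100-1, dre-mir-125a-2 and summed miR-100 lie above 0, and none of the adjusted p values passed.

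Ratios of counts within a library do not depend on its scaling. The miR-99 and miR-100 genes together gave 0.259, 0.307, 0.222 and 0.299 counts for each count of a miR-125 gene in the S+ libraries, against 0.200, 0.240, 0.169 and 0.191 in the S- libraries. The S+ libraries 1, 2 and 4 lay above all S- libraries, and S+ 3 lay between S- 1 and S- 2. The ratio of miR-125b to miR-125a was 3.09 ± 0.189 in S+ and 3.58 ± 0.223 in S- (SD, n = 4 each). The groups did not overlap, but the highest S+ library and the lowest S- library were both at 3.28. MiR-125c came to 0.0595 ± 0.0238 counts for each miR-99 count in S+ and 0.122 ± 0.0507 in S- (SD, n = 4 each), with overlap. These ratios were taken up after the values had been seen and were given no test.

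**Figure D4:**
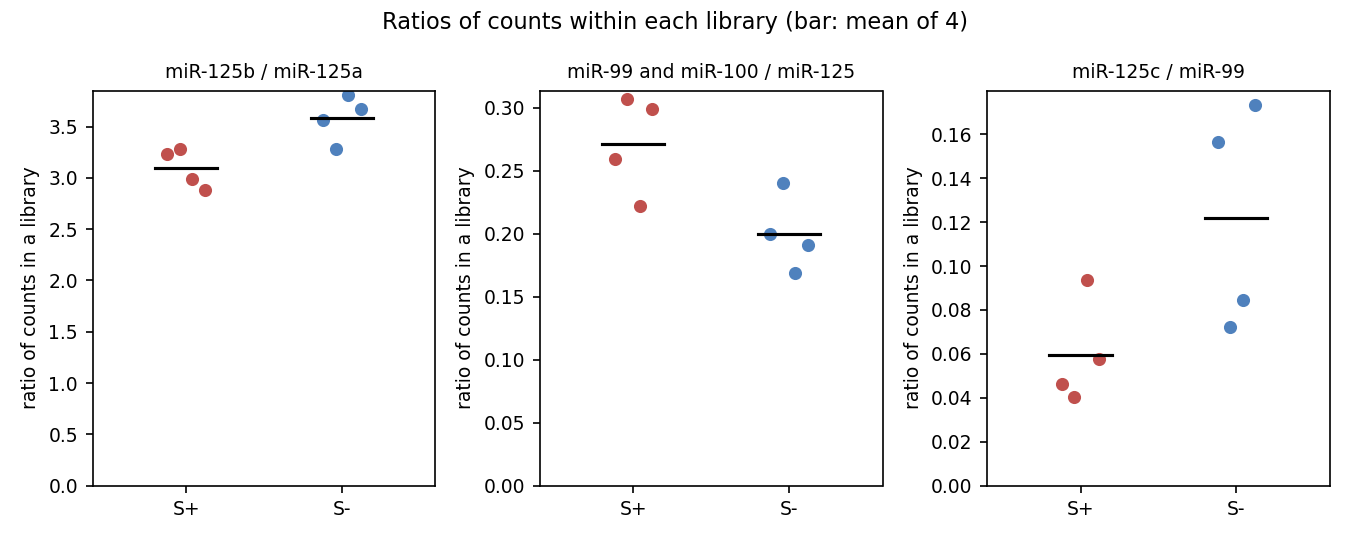
Ratio of summed counts in each library (linear axes from 0, S+ in red, S- in blue, bars for the mean of 4) for miR-125b over miR-125a, miR-99 and miR-100 over miR-125, and miR-125c over miR-99. The S+ libraries lie at 2.89 to 3.28 and the S- libraries at 3.28 to 3.81 in the left panel, and the groups overlap in the other panels.

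By the RefSeq annotation of assembly GRCz12tu, in which all 10 genes were found, these genes fall into 6 groups of miRNA genes within 25 kb, each with a let-7 gene. Let-7 is the miRNA that promotes differentiation and is made from the same primary transcripts in several animals. Dre-mir-100-1, dre-let-7a-2 and dre-mir-125b-1 lie together and had log2 fold changes of 0.65, 0.12 and -0.06. Mir100-2, dre-let-7a-4 and dre-mir-125b-2 had 0.13, 1.08 and -0.03. Mir99-2, dre-let-7c-2 and dre-mir-125b-3 had 0.39, 0.10 and -0.11, and dre-mir-99-1, dre-let-7c-1 and dre-mir-125c had 0.38, 0.02 and -0.59. In each of these 4 groups the miR-99 or miR-100 gene thus had a positive value and the miR-125 gene a negative one, apart from the changes of sign given above for mir100-2 and dre-mir-125b-2, and none of the 8 was called. The groups hold copies of the same miRNAs, which can share reads, so their signs are not independent. Each miR-125b value was smaller than its standard error (0.138, 0.150 and 0.121 for copies 1 to 3), as was that of mir100-2 (0.190). Dre-let-7d-1 stands beside dre-mir-125a-1, with 0.12 and 0.09, and dre-let-7d-2 beside dre-mir-125a-2, with 0.00 and 0.38.

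**Figure D5:**
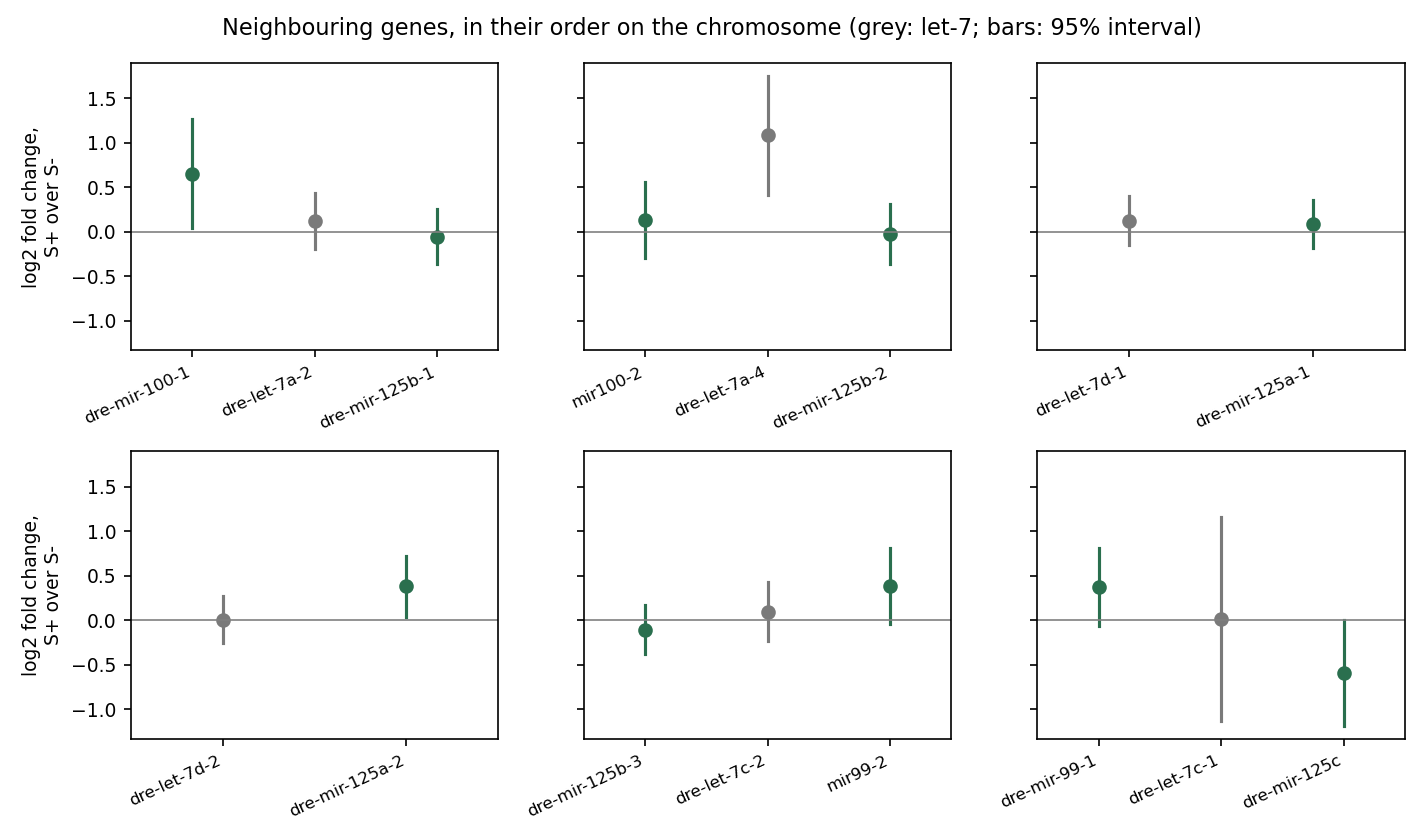
Log2 fold change of S+ over S- with 95% intervals for the 6 groups of neighbouring genes, in the order of the chromosome, with let-7 genes in grey and the genes described here in green. Dre-let-7a-4, at 1.08, is the point farthest from 0, and the miR-125 gene lies below the miR-99 or miR-100 gene in the 4 groups that hold both. Copies of the same miRNA recur among these groups, so the groups are not independent cases.

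Among these neighbours, dre-let-7a-4 stood out, with 86.5 ± 19.998 CPM in S+ and 43.0 ± 16.6 CPM in S- (SD, n = 4 each) and no overlap. Its log2 fold change was 1.08 (standard error 0.299, limma unadjusted p = 0.00475, adjusted p = 0.166). Summed over all its named copies, let-7a had 6337 ± 1001 CPM in S+ and 5377 ± 209 CPM in S- (SD, n = 4 each), with overlap and a log2 fold change of 0.22 (limma adjusted p = 0.540). Of the 10 genes, 6 lie between the ends of a longer gene of that annotation, with its introns included and strand not considered. The methods give default parameters for RSEM, the counting software, and these take no account of strand. The part of reads from such longer transcripts in the counts of these miRNA genes was not tested.

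All 18 let-7 genes whose symbol starts with dre-let-7 passed the filter. Limma called none, and 2 of the 18, dre-let-7a-4 and dre-let-7i, had an unadjusted p below 0.05, against 12.4% of all genes tested. Dre-let-7i had a log2 fold change of -0.39. Their log2 fold changes were positive for 14 and negative for 4, with a median of 0.12, against -0.02 over all genes tested. The most abundant were dre-let-7a-2, with 1642 ± 297 CPM in S+ and 1493 ± 40.6 CPM in S-, and dre-let-7a-1, with 1658 ± 302 CPM in S+ and 1419 ± 45.5 CPM in S- (SD, n = 4 each). The 5 miR-10 genes, whose miRNA is close in sequence to miR-99 and miR-100, all had positive values. They ran from 0.04 to 0.35 with a median of 0.23, against -0.02 over all genes tested. None was called or had an unadjusted p below 0.05 in limma. Dre-mir-10b-2 had 973 ± 98.3 CPM in S+ and 831 ± 123 CPM in S-, and dre-mir-10b-1 had 959 ± 102 CPM in S+ and 822 ± 115 CPM in S- (SD, n = 4 each). Both lists were fitted in the same libraries as the members. Copies of let-7a can share reads, as can dre-mir-10b-1 and dre-mir-10b-2, so the signs within a list are not independent. Of 13 target genes named for these miRNAs, among them mtor, smarca5, fntb and lin28a, 11 were in the table. No library held more than 6 counts of any of them and all failed the filter, so their mRNA was not measurable here.

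Across the 8 libraries, the genes most like the summed miR-99 and miR-100 genes in log2 CPM were dre-let-7f, MIRLET7A3 and mob2b, with Pearson coefficients of 0.899, 0.892 and 0.889 and Spearman coefficients of 0.786, 0.905 and 0.833. For the summed miR-125 genes they were dre-mir-2188, dre-mir-16b and MIR23B, with Pearson coefficients of 0.835, 0.825 and 0.813 and Spearman coefficients of 0.762, 0.690 and 0.571. These are the highest of 641 genes in libraries that share the same scaling, so they only describe the pattern. Mob2b, a protein-coding gene, had only 3 to 27 counts in a library.

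Total counts were 3492945 to 4943297 in the S+ libraries and 3527034 to 4301348 in the S- libraries, and the TMM factors ran from 0.845 to 1.17. The 8 members held 0.422% ± 0.0464 of all counts in S+ and 0.430% ± 0.0664 in S- (SD, n = 4 each), a difference smaller than the spread. Markers of neurons, muscle, liver, gut, pancreas, blood, skin and vessels were all present, as in a whole larva. The 6 genes of the neuronal miR-124 summed to 1698 to 1746 CPM in S+ and 1814 to 2412 CPM in S-, without overlap. The miR-430 genes, of the early embryo, summed to 314 to 356 CPM in S+ and 240.1 to 306 CPM in S-, also without overlap, with 8 of their 55 genes past the filter and 26 at 0. The sums for muscle, liver, gut, pancreas, blood, skin and vessels overlapped between the groups. Over all genes tested, the groups did not overlap in 7.68%. The part of the miR-124 and miR-430 differences in the values of miR-100, dre-mir-125a-2 and dre-mir-125c was not tested.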

How the data were processed

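Reads were trimmed by the authors (Trim Galore 0.6.6). The authors mapped them to GRCz11 with STAR 2.7.8a and small RNA settings, and deposited the estimated counts per Ensembl gene from RSEM 1.3.0, not normalized and held as whole numbers. RSEM ran with default parameters. It divides reads among genes with near-identical sequence, so values of single gene copies are uncertain. The methods name the KAPA RNA HyperPrep kit with RiboErase, not a small RNA kit. They name unique molecular identifiers but no deduplication, so counts are of reads. The exact binomial intervals cover counting error only, while the limma intervals rest on the spread between pools. Each of the 8 columns was matched to a library by its label.

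Counts were compared with limma 3.58.1 after voom in R 4.3.3, with TMM factors and filterByExpr (minimum count 10) from edgeR 4.0.16 and Benjamini-Hochberg adjustment over all 651 genes tested. The fit was repeated with the rows of each miRNA name summed over the whole table. CPM use the factors of the gene fit. The fit was tested on simulated counts. Genes named are the members, their sums and neighbours, the 2 most abundant genes of each companion list, and at most 3 genes of like pattern for each of 2 sums (log2 of CPM plus 0.5). A planned target gene is not reported here. Members and lists were chosen with earlier results of these data known. The alternatives tried were DESeq2 1.42.0, the quasi-likelihood test of edgeR, other factors and filters, a fit of miRNA genes alone, a replicate block, and each library left out.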

Additional observations from a re-analysis of the deposited data

Results flagged for a closer look

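Of the 30 groups of 4 libraries examined (the 10 genes and the 5 sums per miRNA, in S+ and in S-), 0 held a library as far from the others as Dixon's limit at the 95% level, where chance gives about 5%.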

How the results depend on the processing

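Of 225 values of the 10 genes and 5 sums under 15 alternatives, 221 kept their direction, 4 changed it, and all stayed uncalled. Dre-mir-125b-2 turned to 0.0087 with miRNA genes only and ran from -0.0981 to 0.0347 with a library left out, above 0 without S- replicate 2 or 4. Mir100-2 turned to -0.0289 without S+ replicate 3, and its highest such value was 0.229. With each library left out, dre-mir-100-1 ran from 0.49 to 0.87, dre-mir-125a-2 from 0.32 to 0.41, dre-mir-125c from -0.74 to -0.46, summed miR-100 from 0.23 to 0.40 and summed miR-99 from 0.24 to 0.49, with an unadjusted limma p below 0.05 in 2, 3, 3, 2 and 1 of 8 fits. Under the 7 other methods, in the same order, the unadjusted p of limma, edgeR or DESeq2 was below 0.05 in 7, 4, 5, 4 and 2 fits. For dre-mir-125a-2 the unadjusted limma p was 0.0710 with library size only, 0.278 with every gene of at least 1 count and 0.0628 with the replicate block. The difference in the members' share of counts, -0.00795 percentage points, was 0.00260 with mir99-2 and mir100-2 counted, an alternative chosen after seeing the data. Leaving out a library gave -0.0303 to 0.0190.

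Of all genes, 2 were called, against 30 with DESeq2, 0 with DESeq2 size factors (79 at an unadjusted p below 0.05), 1 with library size only, 79 with every gene of at least 1 count, 7 with miRNA genes only, and 0 to 3 with each library left out. With copies summed, 0 were called, against 5 with edgeR's test, 24 with DESeq2, 3 with DESeq2 size factors, 1 with library size only, 74 with every gene of at least 1 count, 8 with miRNA genes only, and 0 to 3 with each library left out. The cause was not tested. The replicate block gave 9 genes and 8 summed features, none of them among the 10 genes and 5 sums. The labels give same-numbered libraries no link beyond the number. The deviations of replicates 1 to 4 correlated at 0.156, -0.159, 0.248 and 0.0294, and 1 of 4 S- libraries was most like the S+ library of its number. With so few libraries this cannot decide whether same-numbered libraries were handled together.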
